A study of Mus musculus with 6 samples.

Results

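The 10 genes described here are markers of endothelial cells, the cells that line blood vessels: Ramp2, Cdh5, Kdr, Pecam1, Tek, Tie1, Cldn5, Plvap, Esam and Eng. They were chosen by name, with earlier results of these data known. A probe set counted for a member where the platform annotation gave it that 1 symbol and no other. Each member had exactly 1 such probe set, so 10 of 21789 named probe sets (10 of 19938 genes) were followed, without a filter on brightness. A further probe set, annotated to both Ramp2 and Malat1, was left out by this rule. The question was whether Ramp2 was low alone or together with the other vessel markers in heads of embryos labelled as lacking Taspase1.

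RNA came from 6 mouse embryo heads (forebrain and midbrain) at E10.5 (midgestation) on a C57Bl6 background, 3 labelled Taspase1 knock-out (Tasp1-/-, here KO-labelled) and 3 labelled wild type (WT-labelled). Per the labels, all came from matings between Tasp1+/- parents and each head was 1 embryo, hybridised to 1 array. The knock-out is labelled as a whole-embryo genotype, with no tissue-specific driver named. Each head was read as bulk tissue, in which fewer endothelial cells and less RNA per endothelial cell cannot be told apart.

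Between any pair of arrays, Pearson correlation across the brighter 60% of probe sets, which are not independent replicates, was 0.989 to 0.996. The Tasp1 probe set read 8.63, 8.63 and 8.50 in the KO-labelled heads, against 8.10, 8.45 and 8.49 in the WT-labelled heads. Every KO-labelled head was thus above every WT-labelled head, though the nearest heads read 8.498 (KO-labelled head 3) and 8.486 (WT-labelled head 3). The group means differed by 0.24 (95% confidence interval 0.02 to 0.46, limma unadjusted p = 0.0335, adjusted p = 0.791). This direction goes against the lower signal that loss of the probed part would give. The sources used here do not place the probe set relative to the deleted part, so the labels remain unchecked. WT-labelled head 2 had an Xist signal of 12.32, where the other heads had at most 5.24, so it was the only head with the signal of a female. The 9 measured neuroepithelial markers were all brighter than the dimmest 40% of named probe sets.

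Endothelial cells are held together by adherens and tight junctions, which Cdh5, Esam, Pecam1 and Cldn5 help to build, and they read growth signals through receptors such as Kdr, Tek and Tie1. At midgestation in the mouse, vessels from the plexus around the neural tube grow into the brain wall, driven by VEGF. Ramp2 is a single-pass accessory protein that binds the receptor encoded by Calcrl and makes it a receptor for adrenomedullin, the peptide encoded by Adm. Mouse embryos without Ramp2 or Adm are known to die with leaky, malformed vessels and oedema.

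Ramp2 had the clearest difference of the 10 markers. Its log2 signal was 8.73, 8.69 and 8.72 in the KO-labelled heads, against 9.13, 8.95 and 9.02 in the WT-labelled heads. Every KO-labelled head lay below every WT-labelled head, and the 3 KO-labelled heads lay closer together. The KO-labelled mean was 8.71 ± 0.02 and the WT-labelled mean 9.03 ± 0.09 (SD, n = 3 each). The difference was −0.32 (SE 0.06, 95% confidence interval −0.46 to −0.18). As a ratio of signals, KO-labelled over WT-labelled, this is 0.801 (0.725 to 0.885).

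The Ramp2 difference did not pass the test across all named probe sets (limma, unadjusted p = 5.06e-04, Benjamini-Hochberg adjusted p = 0.296). Over its alternatives that adjusted p ran between 0.228 and 0.9999. An exact two-sided permutation test gave p = 0.1, the smallest that 3 against 3 heads allow. Its unadjusted p ranked 36 of 21789, and 93 probe sets (0.427%) had a difference at least as far below 0. This is the rank of a gene chosen with earlier results of these data known. In limma 0 probe sets (0%) passed adjusted p 0.05, where 1354 had an unadjusted p under 0.05. Without KO-labelled head 1, 8 probe sets passed, and without WT-labelled head 1, 1 did. Members and genes of the companion lists were not among the probe sets called with all heads or with any head left out.

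**Figure D1:**
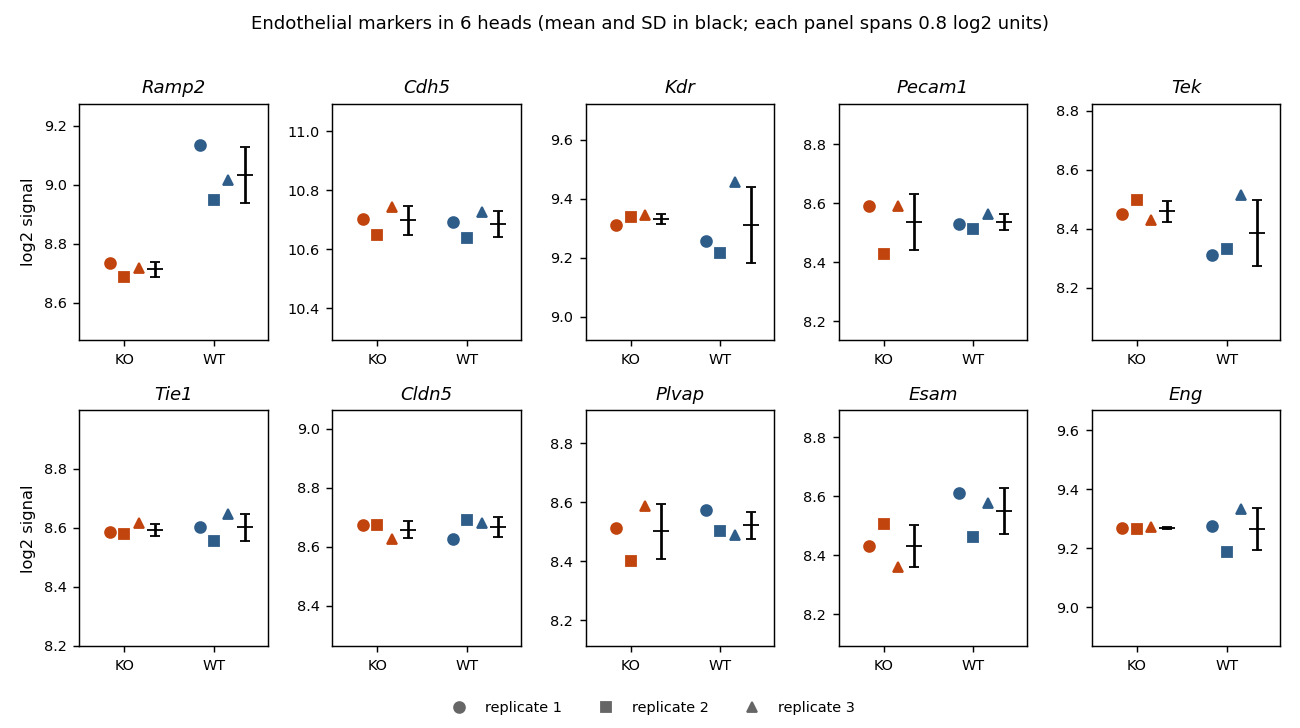
Log2 signal (vertical axis) of the 10 endothelial markers in each KO-labelled (orange) and WT-labelled (blue) head, 1 panel per gene spanning 0.8 log2 units, with the mean and SD in black (n = 3 each). The 3 KO-labelled heads sit between 8.69 and 8.73 for Ramp2, below the WT-labelled heads at 8.95 to 9.13, while for the other 9 markers the groups overlap.

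For the other 9 markers, the ranges of KO-labelled and WT-labelled heads overlapped in each. Of the 9, 4 were lower and 5 higher in KO-labelled heads, with differences from −0.12 to 0.07. Their median difference was 9.2e-04, beside a median of −0.01 over all named probe sets. No member had an unadjusted limma p under 0.05 apart from Ramp2. That makes 1 of 10 members lower at this level, where 3.89% of all named probe sets were, and 0 of 10 higher, where 2.32% were. Members were chosen with earlier results of these data known, so these shares are a description and not a test. Ranges were apart with KO-labelled heads below for 1 of 10 members, against 6.76% of all named probe sets, and with KO-labelled heads above for 0 of 10, against 4.15%.

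A p that misses the threshold does not show equality, so the intervals matter here. For all 9 markers the 95% confidence interval of the difference did not reach down to the −0.32 measured for Ramp2, whose own interval was −0.46 to −0.18. The interval of Esam, −0.27 to 0.04, overlaps that of Ramp2, so these intervals do not separate Esam from Ramp2. As a ratio, the lower bound of Esam was 0.829, the lowest of the 9. The next lowest was that of Plvap, −0.17 (0.888 as a ratio), and the highest upper bound was that of Tek, 0.23 (1.17).

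Cdh5 encodes VE-cadherin, the adhesion molecule of endothelial adherens junctions. Its signal was 10.70, 10.65 and 10.74 in the KO-labelled heads, against 10.69, 10.64 and 10.73 in the WT-labelled heads. The groups covered almost the same range. The difference was 0.01 (SE 0.05, limma adjusted p = 0.980).

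Esam, an adhesion molecule of endothelial tight junctions and platelets, came next to Ramp2 in size among the lower markers. Its signal was 8.43, 8.50 and 8.36 in the KO-labelled heads, against 8.61, 8.46 and 8.58 in the WT-labelled heads. KO-labelled head 2 lay above WT-labelled head 2, so the groups overlapped. The difference was −0.12 (SE 0.07, limma unadjusted p = 0.118, adjusted p = 0.863).

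Pecam1 encodes CD31, an adhesion molecule also found on platelets and leukocytes. Its signal was 8.59, 8.43 and 8.59 in the KO-labelled heads, against 8.53, 8.51 and 8.57 in the WT-labelled heads. KO-labelled head 2 was the lowest of all 6 and the other KO-labelled heads the highest. The difference was 9.2e-04 (SE 0.07, limma adjusted p = 0.999).

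Cldn5, the main claudin of endothelial tight junctions in the brain, read 8.67, 8.67 and 8.63 in the KO-labelled heads, against 8.63, 8.69 and 8.68 in the WT-labelled heads. It had the smallest range over the 6 heads of any member, 0.0627. The difference was −0.01 (SE 0.06, limma adjusted p = 0.991).

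Plvap forms the diaphragms of fenestrated endothelium and is shed from brain vessels as their barrier matures. Its signal was 8.51, 8.40 and 8.59 in the KO-labelled heads, against 8.57, 8.50 and 8.49 in the WT-labelled heads. The KO-labelled heads held both the lowest and the highest value. The difference was −0.02 (SE 0.07, limma adjusted p = 0.9752).

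Among the receptors, Kdr encodes VEGFR2, the main signalling receptor for VEGF. Its signal was 9.31, 9.34 and 9.34 in the KO-labelled heads, against 9.26, 9.22 and 9.46 in the WT-labelled heads. The WT-labelled heads spanned the KO-labelled ones on both sides. The difference was 0.02 (SE 0.07, limma adjusted p = 0.977).

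Tek encodes TIE2, the receptor for angiopoietins. Its signal was 8.45, 8.50 and 8.43 in the KO-labelled heads, against 8.31, 8.33 and 8.51 in the WT-labelled heads. WT-labelled head 3 was the highest of all and the other WT-labelled heads the lowest. The difference was 0.07 (SE 0.07, limma adjusted p = 0.919), the largest upward one of the 10 markers.

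Tie1, the relative of TIE2 that modulates its signalling, read 8.59, 8.58 and 8.62 in the KO-labelled heads, against 8.60, 8.56 and 8.65 in the WT-labelled heads. The difference was −0.0087 (SE 0.06, limma adjusted p = 0.989), with the KO-labelled values inside the WT-labelled range.

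Eng encodes endoglin, a co-receptor for ligands of the TGF-β family on endothelial cells, and lies on chromosome 2, as Tasp1 does. Its signal was 9.27, 9.26 and 9.27 in the KO-labelled heads, against 9.28, 9.19 and 9.33 in the WT-labelled heads. The KO-labelled heads nearly coincided and lay inside the WT-labelled range. The difference was 0.0041 (SE 0.06, limma adjusted p = 0.996).

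The markers shared part of the order of the heads. Leaving Ramp2 aside, WT-labelled head 3 was the highest for 4 of the 9 markers (Kdr, Tek, Tie1 and Eng). WT-labelled head 2 was the lowest for 4 (Cdh5, Kdr, Tie1 and Eng), and it is the head with the high Xist signal. Without WT-labelled head 2, 7 of the 9 were lower in KO-labelled heads and their median difference was −0.03, and the Ramp2 difference was −0.36. Without WT-labelled head 3, 3 of the 9 were lower and their median difference was 0.02, and the Ramp2 difference was −0.33.

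The mean log2 signal of the 9 markers was 8.95, 8.93 and 8.95 in the KO-labelled heads, against 8.94, 8.90 and 8.999 in the WT-labelled heads. Ramp2 minus that mean, a log2 ratio within each array, was −0.21, −0.24 and −0.23 in the KO-labelled heads, against 0.19, 0.05 and 0.02 in the WT-labelled heads. The groups were apart, and the difference between their means was −0.32. Set against each of the 9 markers in turn, the Ramp2 ratio differed by −0.39 (against Tek) to −0.20 (against Esam), and KO-labelled heads lay below WT-labelled heads for 9 of 9. These ratios all share the Ramp2 values, so they are not separate measurements. With every array centred on the mean of the 9 markers, the limma fit gave Ramp2 a difference of −0.32 (SE 0.07, adjusted p = 0.286).

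**Figure D2:**
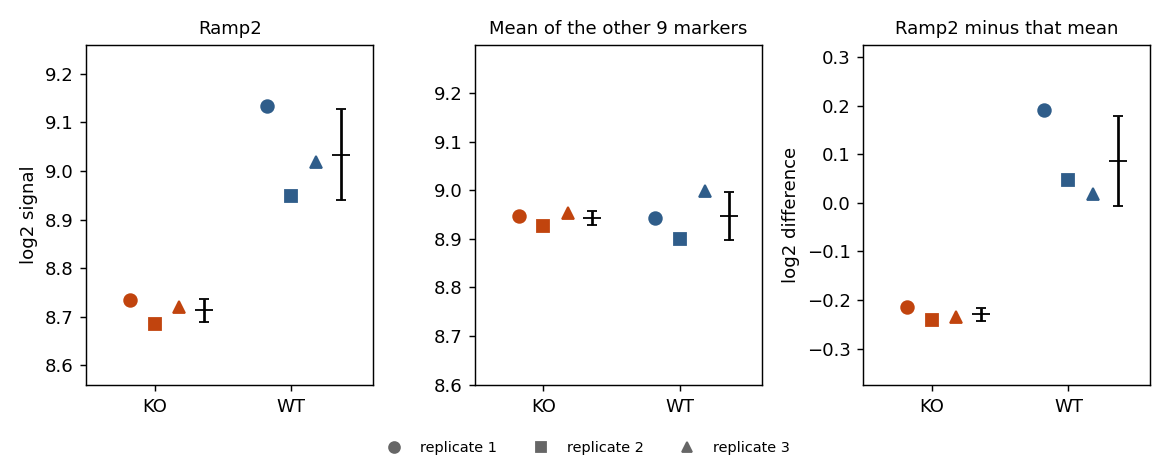
Log2 signal of Ramp2 (left), mean log2 signal of the other 9 endothelial markers (middle) and their log2 difference (right) in each KO-labelled (orange) and WT-labelled (blue) head, with the mean and SD in black (n = 3 each). The mean of the 9 markers overlaps between the groups, at 8.93 to 8.95 in KO-labelled and 8.90 to 8.999 in WT-labelled heads, whereas Ramp2 minus that mean is −0.24 to −0.21 in KO-labelled and 0.02 to 0.19 in WT-labelled heads.

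The likeness of 2 genes was measured as the root mean square difference of their log2 signals over the 6 heads, each gene centred on its own mean. It is not scaled to a gene's spread, so genes that vary little come out alike. Likeness to Ramp2 largely follows the group differences already given and is not separate evidence. The most alike pair of members was Tie1 and Eng, at 0.0198, followed by Cdh5 and Tie1, at 0.0214. From Ramp2 the nearest member was Esam, at 0.116, and the farthest was Tek, at 0.220. Among 9792 other genes in the brighter 50%, Esam ranked 548 in likeness to Ramp2, and the remaining members ranked between 3136 (Plvap) and 8191 (Tek).

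The 5 genes most like Ramp2 were Slc29a1, a nucleoside transporter (0.0311), B2m, the light chain of MHC class I (0.0329), Rspo1, a secreted WNT enhancer (0.0414), Coq7, an enzyme of ubiquinone synthesis (0.0426), and Emx1, a cortical homeobox gene (0.0457). Their differences were −0.29 for Slc29a1, −0.26 for B2m, −0.31 for Rspo1, −0.25 for Coq7 and −0.27 for Emx1. None of them is in the lists of endothelial genes used here, which does not show in which cells they are expressed.

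Promoter sequences from RefSeq (GRCm38.p6, 250 bases before to 50 after the gene's start) were held for 5 of the 10 members: Cldn5, Eng, Kdr, Tek and Tie1. Those of Tie1 and Eng are shown because these members had the most alike profiles over the heads. Capitals mark GGAA, the core of sites bound by ETS factors, which drive many endothelial genes, or TTCC, the same core on the opposite strand. Tie1 (chr4:118489800-118490099, minus strand) has 9 cores, and Eng (chr2:32646345-32646644, plus strand) has 4.
Tie1: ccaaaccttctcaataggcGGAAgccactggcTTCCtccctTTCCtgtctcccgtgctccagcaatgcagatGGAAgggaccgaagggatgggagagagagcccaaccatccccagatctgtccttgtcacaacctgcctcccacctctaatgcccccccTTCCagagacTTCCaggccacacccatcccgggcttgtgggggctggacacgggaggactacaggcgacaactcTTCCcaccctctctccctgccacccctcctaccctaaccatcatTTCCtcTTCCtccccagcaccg
Eng: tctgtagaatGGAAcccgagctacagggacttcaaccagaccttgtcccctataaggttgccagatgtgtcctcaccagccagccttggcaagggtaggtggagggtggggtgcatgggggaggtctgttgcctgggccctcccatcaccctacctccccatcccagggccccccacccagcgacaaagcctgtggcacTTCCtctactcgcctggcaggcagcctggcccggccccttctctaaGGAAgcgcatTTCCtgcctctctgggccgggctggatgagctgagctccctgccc

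Kdr had 5 such cores, Tek 2 and Cldn5 0. Of 32851 promoters of 300 bases, 96.0% held at least 1, with a median of 3. Searched on both strands, GATAA (25.4% of all promoters) and AACAAT (10.7%), cores of GATA and SOX sites, each occurred in the Tek promoter and in no other of the 5. The palindrome CACGTG (7.15%) occurred in 0 of the 5. The AACAAT match in Tek, on the opposite strand, overlaps a TTCC core. A match is a description of the letters and not of a bound site.

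The partners of Ramp2 were read next. Calcrl, the receptor that Ramp2 escorts, read 8.77, 8.82 and 8.75 in the KO-labelled heads, against 8.75, 8.75 and 8.84 in the WT-labelled heads. The groups overlapped, with a difference of −0.0019 (95% confidence interval −0.13 to 0.13, limma adjusted p = 0.998). The ligand gene Adm was dim, brighter than 30.1% of named probe sets, and differed by 0.07 (SE 0.09, limma adjusted p = 0.929). Ramp3, the relative of Ramp2 that also forms an adrenomedullin receptor, read 7.19, 7.20 and 7.10 in the KO-labelled heads, against 7.25, 7.22 and 7.36 in the WT-labelled heads. Its groups were apart, and its difference of −0.11 (SE 0.07, limma adjusted p = 0.874) did not pass.

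Of the adrenomedullin and CGRP system, 9 of 10 genes were measured, 6 lower and 3 higher, with a median difference of −0.03 (−0.06 without WT-labelled head 2, −0.01 without WT-labelled head 1). In this list 1 of the 9 had an unadjusted limma p under 0.05 and was lower, where 3.89% of all named probe sets were. It was Crcp, a component associated with the CGRP receptor, with a difference of −0.15 (limma adjusted p = 0.794). Calcr, the calcitonin receptor gene, differed by −0.07. Calcrl, Ramp3, Crcp and Ackr3, 4 of the 9, were brighter than the dimmest 40% of named probe sets.

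**Figure D3:**
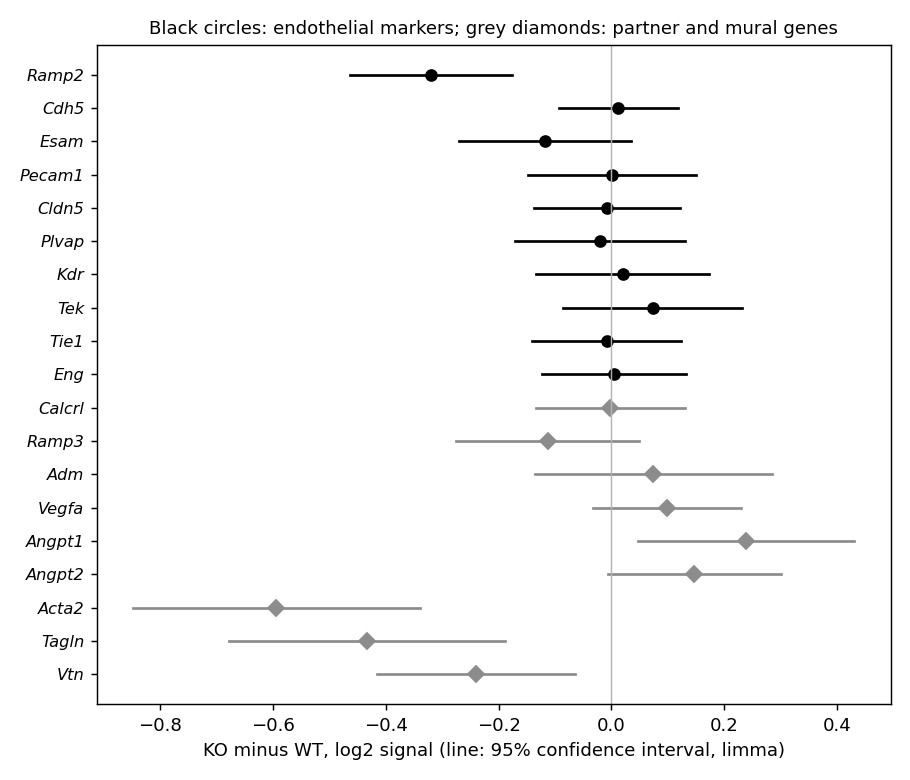
KO-labelled minus WT-labelled difference in log2 signal (horizontal axis) with its 95% confidence interval from limma, for the 10 endothelial markers (black circles) and for ligand, receptor and mural genes (grey diamonds). Ramp2 at −0.32 stands to the left of the other 9 markers, at −0.12 to 0.07. Acta2 and Tagln lie further left at −0.59 and −0.43. The mural genes drawn (Acta2, Tagln and Vtn) are the 3 of 13 with the smallest limma p. The other 10, not drawn, differed by −0.15 to 0.06. Also not drawn are Vegfb (−0.10) and Crcp (−0.15), each among the 3 genes of its list with the smallest limma p. Of the 16 VEGF and angiopoietin genes, 5 were lower.

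Signals for Kdr and Tek come from the VEGF and angiopoietin ligands. Vegfa, the main ligand of Kdr, read 9.87, 9.87 and 9.89 in the KO-labelled heads, against 9.665, 9.815 and 9.85 in the WT-labelled heads. The groups were narrowly apart, and the difference of 0.10 (SE 0.06, limma adjusted p = 0.868) did not pass. Angpt1, the activating ligand of Tek, read 7.51, 7.62 and 7.35 in the KO-labelled heads, against 7.20, 7.35 and 7.21 in the WT-labelled heads. It was the single gene of the 16 measured in its list with an unadjusted limma p under 0.05 (difference 0.24, unadjusted p = 0.0198, adjusted p = 0.762). Of all named probe sets, 2.32% were higher at that level.

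Angpt2, a context-dependent ligand of Tek, differed by 0.15 and Vegfb by −0.10, both with the groups apart and neither past the test (limma adjusted p = 0.826 and 0.848). Over the 16 measured genes of this list, 11 were higher and 5 lower, with a median difference of 0.04. Without KO-labelled head 1, 8 lay on each side, and the median was −0.0045.

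A wider list of 27 other endothelial genes, of which 26 were measured, was read beside the 9 markers. In KO-labelled heads 19 were lower and 7 higher, with single differences from −0.13 to 0.08. Over all named probe sets, lower values were also in the majority, with a median of −0.01. A difference of 9.2e-04, that of Pecam1, ranked 12368 of 21789 from the lowest there. The median difference of the 26 genes was −0.05. Without WT-labelled head 3, 17 were lower and 9 higher, with a median of −0.02. None of the 26 had an unadjusted limma p under 0.05, where 3.89% of all named probe sets were lower at that level and 2.32% higher. The smallest p-values were those of Gja5, an arterial connexin gene (−0.12), Cd34, a sialomucin of endothelium and blood progenitors (−0.09), and Robo4, an endothelial guidance receptor gene (−0.09).

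The mean log2 signal of these 26 genes was 8.13, 8.11 and 8.12 in the KO-labelled heads, against 8.14, 8.14 and 8.18 in the WT-labelled heads. The groups were apart by a small step, and the means differed by −0.03. Ramp2 minus this mean was 0.60, 0.57 and 0.60 in the KO-labelled heads, against 0.997, 0.80 and 0.84 in the WT-labelled heads. With every array centred on these 26 genes, a setting added after seeing the data, the Ramp2 difference was −0.29 (SE 0.07, limma adjusted p = 0.390).

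Endothelial transcription factors were also mostly on the lower side, 16 of 18, with single differences from −0.18 to 0.08. Their median difference was −0.04, beside −0.01 over all named probe sets, where lower values were also in the majority. Without KO-labelled head 2, 12 were lower (median −0.01), without WT-labelled head 2, 13 (−0.08), and without KO-labelled head 1, 15 (−0.08). With arrays centred on the 26 endothelial genes, 10 of 18 were lower. Sox17, a regulator of arterial identity, differed by −0.18, Bcl6b, an endothelial transcriptional repressor gene, by −0.16, and Hhex, a homeobox gene of early endothelium, by −0.15. Their limma adjusted p-values were 0.829, 0.864 and 0.865. None of the 18 had an unadjusted limma p under 0.05, where 3.89% of all named probe sets were lower at that level and 2.32% higher.

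Genes of brain vessels and their barrier (8 measured) included none at an unadjusted limma p under 0.05, where 3.89% of all named probe sets were lower and 2.32% higher. Their median difference was 0.03, with 5 higher and 3 lower. That direction rested on single heads: without KO-labelled head 1 there were 3 higher and 5 lower (median −0.02), without WT-labelled head 1 there were 4 on each side (−1.5e-04), and without WT-labelled head 3 the median was 0.09. Lef1, a nuclear effector of WNT signalling, differed by 0.08, Reck, a membrane protein needed for WNT7 signalling in brain endothelium, by 0.08, and the glucose transporter gene Slc2a1 by −0.06. Lef1, Reck and Slc2a1 are also expressed outside vessels at this stage.

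Of the markers of mural cells, the pericytes and smooth muscle cells around vessels, 10 of 13 had lower values in KO-labelled heads and none passed the adjusted test. Acta2, smooth muscle actin, read 8.30, 8.16 and 8.47 in the KO-labelled heads, against 9.16, 8.86 and 8.70 in the WT-labelled heads. Tagln, an actin-binding protein gene of smooth muscle, read 7.61, 7.55 and 7.50 in the KO-labelled heads, against 8.27, 7.79 and 7.91 in the WT-labelled heads. Every KO-labelled head was below every WT-labelled head for both. The differences were −0.59 for Acta2 (SE 0.11, limma unadjusted p = 3.61e-04, adjusted p = 0.292) and −0.43 for Tagln (SE 0.11, limma unadjusted p = 0.0027, adjusted p = 0.462).

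The mural gene Vtn, which encodes vitronectin, differed by −0.24 (limma unadjusted p = 0.0120, adjusted p = 0.7004). The median over the 13 mural genes was −0.08 (−0.14 without KO-labelled head 1, −0.05 without KO-labelled head 3), 3 were higher, and the 10 genes apart from Acta2, Tagln and Vtn differed by −0.15 to 0.06. In limma 3 of 13 had an unadjusted p under 0.05 and were lower, where 3.89% of all named probe sets were, and 0 of 13 were higher at that level, where 2.32% were. Without KO-labelled head 3 the lower count was 2, and without WT-labelled head 3 it was 5. The mean log2 signal of the mural list ran from 7.82 to 7.91 in KO-labelled heads, against 7.92 to 8.06 in WT-labelled heads, and 10 of the 13 genes were brighter than the dimmest 40% of named probe sets. The part of mural cells in the Ramp2 difference was not tested.

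Blood cells share some of the 10 markers. Erythroid genes were lower in 8 of 8 measured, with a median difference of −0.10, beside −0.01 over all named probe sets. Their mean log2 signal was 9.88 to 10.04 in KO-labelled heads, against 10.05 to 10.15 in WT-labelled heads. Without KO-labelled head 2, 4 were lower and 4 higher (median −0.05), and without KO-labelled head 1 the median was −0.16. With quantile normalization or without WT-labelled head 2, 6 were lower and 2 higher. The embryonic globin gene Hbb-bh1 read 12.57, 12.44 and 12.56 in the KO-labelled heads, against 12.80, 12.78 and 12.64 in the WT-labelled heads, a difference of −0.21 (limma unadjusted p = 0.0021, adjusted p = 0.424). Chosen after their values were seen, the embryonic globin genes Hbb-y and Hba-x, both brighter than Hbb-bh1, differed by −5.0e-04 and −0.02. The heme synthesis gene Alas2 and the erythroid factor gene Gata1, both on the X chromosome, differed by −0.13 and −0.16, with limma adjusted p = 0.829 for each.

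Macrophage genes (11 measured) had a median difference of −0.07, with 7 lower and 4 higher, and mean log2 signals of 7.01 to 7.16 in KO-labelled heads, against 7.15 to 7.21 in WT-labelled heads. Without KO-labelled head 2 the median was −0.02, and without KO-labelled head 3 it was −0.12. C1qb, a subunit of complement C1q, differed by −0.30 (limma adjusted p = 0.448), C1qc by −0.23 and the Fc receptor gene Fcgr3 by −0.17. On the other side, chosen after their values were seen, the chemokine receptor gene Cx3cr1 differed by 0.11 and Aif1, an actin-binding protein gene of macrophages, by 0.09. The part of erythroid cells and macrophages in the Ramp2 difference was not tested. Of the members that blood or myeloid cells can also express, Pecam1, Tek and Eng differed by less than 0.1. Esam, also found on platelets, differed by −0.12. Of all 9 markers, 8 differed by less than 0.1, so this does not set those members apart.

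**Figure D4:**
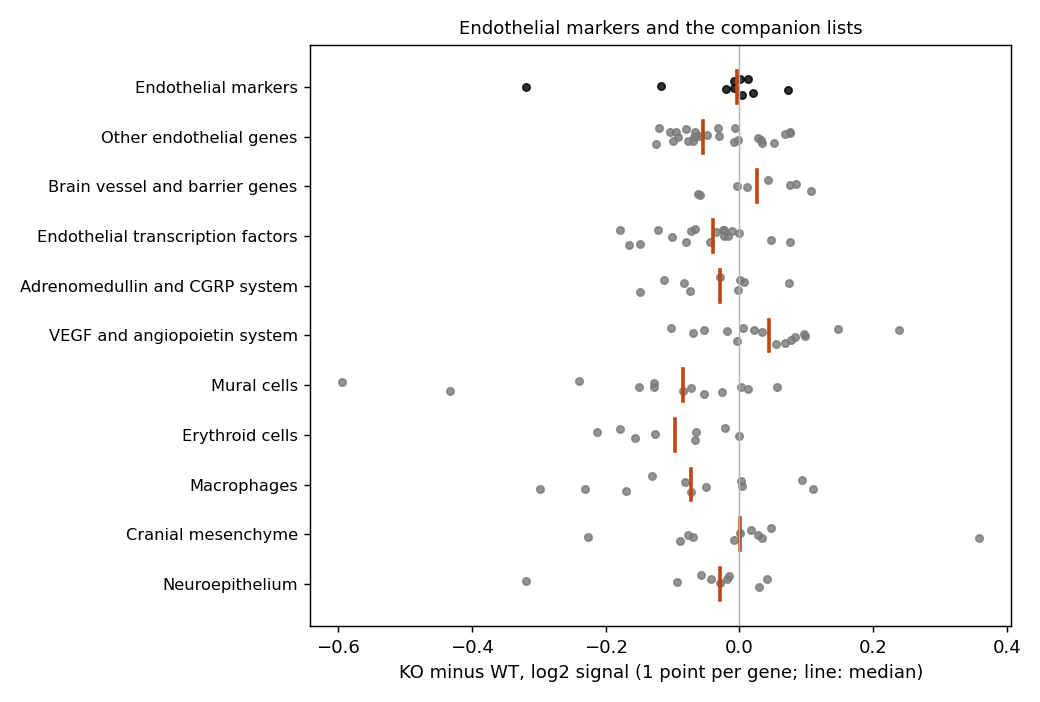
KO-labelled minus WT-labelled difference in log2 signal (horizontal axis), 1 point per gene, for the 10 endothelial markers (black) and the 10 companion lists (grey), with the median of each list as an orange line. Medians run from −0.10 for erythroid genes to 0.04 for the VEGF and angiopoietin system, and that of the endothelial markers is −0.0034.

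Cranial mesenchyme genes (11 measured, median difference 0.0016) and neuroepithelial genes (9 measured, −0.03) were read as the tissue around the vessels. Neither median kept its sign. Without KO-labelled head 1, 10 of the 11 mesenchyme genes were lower (median −0.07). In that fit 2 of them had an unadjusted limma p under 0.05, as had 1242 of 21789 named probe sets in either direction. Without WT-labelled head 1 the neuroepithelial median was 0.0088. The matrix gene Dcn differed by 0.36 (limma unadjusted p = 0.0309), the collagen gene Col1a1 by −0.23 and the transcription factor gene Foxd1 by −0.09. In the neuroepithelium the cortical homeobox gene Emx2 differed by −0.32 (limma unadjusted p = 0.0042, adjusted p = 0.580), Fabp7 by −0.09 and Pax6 by −0.06. Over all 10 companion lists, 129 of 136 genes were measured, and at an unadjusted limma p under 0.05 there were 7 lower genes (5.43%, against 3.89% of all named probe sets) and 2 higher ones (1.55%, against 2.32%). These shares lie near those of all probe sets, and 0 passed the adjusted threshold.

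Ramp2 lies on chromosome 11. Its nearest neighbours with a named probe set, in the order of the GRCm38.p6 gene table, were Ccr10, Cntnap1 and Ezh1 on one side and Vps25, Wnk4 and Coa3 on the other. Cntnap1, a contactin-associated protein gene, was dim and differed by −0.30 (limma unadjusted p = 0.0054, adjusted p = 0.611). The adjacent genes Ezh1, a Polycomb methyltransferase gene, and Vps25, an endosomal sorting gene, differed by 0.07 and −0.12. Ccr10, Wnk4 and Coa3 differed by −0.09, −0.03 and −0.04.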

How the data were processed

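RNA of 6 heads (100 ng each, biotin-labelled, per the labels' protocols) was read on 1-colour Affymetrix arrays. The authors deposited log2 signals, 1 per probe set and array, from 2.73 to 14.4, with array medians of 7.35 to 7.45. Tools named, per the submitters' processing notes, are Affymetrix Expression Console and MAS5, and how arrays were normalised is not given in the sources used. The values were used as deposited, and 0 columns were left out. Of 35556 probe sets, 21789 had 1 symbol and entered the comparison, 1621 had several and 12146 were unnamed. Where a gene had several, its brightest probe set was used.

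KO-labelled and WT-labelled heads (3 each) were compared with limma 3.58.1 in R 4.3.3 (lmFit and eBayes, prior variance following mean signal). P-values were two-sided and adjusted by Benjamini-Hochberg over all named probe sets, with a threshold of 0.05. Exact permutation tests over heads used scipy 1.17.1. The fit was tested on simulated data with independent errors, which checks the code and not how real heads vary together. The number of arrays limits the precision.

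Members and lists were chosen with earlier results of these data known. The rule named all members, the 3 genes of each list with the smallest p, Calcrl, Adm, Vegfa, Angpt1, Tasp1 and Xist, the 3 neighbours on each side of Ramp2, and the 5 genes most like it. Genes were matched by symbol, with older symbols where needed. Alternatives covered scaling, pseudocounts of 1 and 64, a 40% brightness filter, all probe sets, other variance models, the replicate block, Xist as a covariate and each head left out. Figures were drawn with matplotlib 3.10.9.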

Additional observations from a re-analysis of the deposited data

How the results depend on the processing

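The Ramp2 difference stayed below 0 and short of adjusted p 0.05 in limma under all 19 alternatives. It ran from −0.36 to −0.28 over the 13 with all heads, and from −0.36 to −0.27 over the 6 with 1 head left out. Members called other than Ramp2, and companion genes called, were 0 in each. The median difference of the 9 markers ran from −0.03 to 0.03 and from −0.03 to 0.02, so its sign depended on the setting. Of these 9, 4 were lower as reported, 8 with median centring and 1 with arrays centred on the 26 endothelial genes. The count of probe sets called, 0 as reported, was 7 with arrays centred on the 9 markers, 1 centred on the 26 endothelial genes (chosen after seeing the data) and 9 over all probe sets, and ran from 0 to 8 with 1 head left out. The cause was not tested. With the replicate block, Ramp2 differed by −0.32 (limma adjusted p = 0.516) and 0 probe sets were called. The numbers were not taken as a pairing, since deviations of same-numbered heads correlated at −0.21, −0.12 and −0.24 across probe sets. Differently numbered heads correlated at −0.13 to 0.30. The highest were KO-labelled head 1 with WT-labelled head 2 (0.23), 2 with 3 (0.27) and 3 with 1 (0.30). Deviations in a group sum to 0 for each probe set, so low values for some pairs bring high values for others. The cause of these correlations was not tested, and no pairing was built from them.

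The 95% intervals of the 9 markers reach ratios of 0.829 to 1.17, so smaller differences are not resolved by 3 heads a group. Sex differed between heads and is not balanced.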
